A study of Mus musculus with 6 samples.

Results

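Cell division in mouse bone marrow was examined through 33 genes of mitosis and cytokinesis, the genes that condense and attach chromosomes, build the spindle, time anaphase and divide the cell. The genes were chosen by name, and all 33 were found among the 23746 loci of each table, with a usable value in all 6 libraries. Marrow came from C57BL/6 mice of 12 weeks that were Diap1 -/- (KO), Diap1 +/- (Het) or wild type (WT), with 4 mice of a genotype pooled. Diap1 encodes a formin, a protein that nucleates and lengthens actin filaments under the control of the small GTPase RhoA. Each pool gave a fraction of progenitors (Lin-), left after lineage-positive cells were depleted, and a fraction of cells taken with magnetic beads for Gr1 and Mac1, surface antigens of granulocytes and monocytes (Gr1+Mac1+). Each of the 6 combinations of genotype and fraction was sequenced as 1 library, so each genotype is represented by 1 pool and the spread between mice was not measured. The deleted part of Diap1, the cells in which it is deleted and the sex of the mice are not stated in the labels.

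Entry into mitosis is driven by CDK1 bound to B-type cyclins, together with the Aurora and Polo kinases. The kinetochore, a protein assembly on each centromere, binds spindle microtubules, and the spindle checkpoint blocks the ubiquitin ligase APC/C and its activator CDC20 until every kinetochore is attached. At anaphase the central spindle recruits ECT2, which activates RhoA, and RhoA acts through formins and myosin to close the cleavage furrow. In marrow, divisions are frequent among progenitors and early myeloid precursors and cease as neutrophils mature. Transcripts of this program accumulate in G2 and M phase. Many of its promoters carry a CHR element, bound by the DREAM and MYB-MuvB complexes, and CCAAT boxes, bound by NF-Y.

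Promoter sequence was read from RefSeq (GRCm38.p6) as 300 bases per gene, 250 before the annotated start and 50 from it onwards. Of the 33 genes, 28 had such a window; Aurkb, Ccna2, Incenp, Kif20a and Tpx2 did not. The windows of the genes with the largest differences between fractions in each direction are shown, 5′ to 3′ on the strand of the gene, together with that of Top2a, which was added because it held the most matches. Capitals mark a CHR element (spelled TTTGAA or alternatively TTCGAA), the CCAAT box or an E2F site (spelled TTCCCGC or alternatively TTGGCGC, besides the forms TTCGCGC and likewise TTGCCGC), each searched on both strands, so that ATTGG is a CCAAT box and TTCAAA a CHR element on the opposite strand. Cenpa (chr5:30666636-30666935, + strand), Ccnb1 (chr13:100786437-100786736, - strand) and Nek2 (chr1:191821223-191821522, + strand) were higher in Lin- cells.
Cenpa: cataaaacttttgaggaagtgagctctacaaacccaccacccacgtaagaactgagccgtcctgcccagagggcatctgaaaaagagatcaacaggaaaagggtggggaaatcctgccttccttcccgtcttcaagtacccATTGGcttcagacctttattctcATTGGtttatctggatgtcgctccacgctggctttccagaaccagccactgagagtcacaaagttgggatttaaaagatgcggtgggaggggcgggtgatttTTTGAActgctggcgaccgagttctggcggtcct
Ccnb1: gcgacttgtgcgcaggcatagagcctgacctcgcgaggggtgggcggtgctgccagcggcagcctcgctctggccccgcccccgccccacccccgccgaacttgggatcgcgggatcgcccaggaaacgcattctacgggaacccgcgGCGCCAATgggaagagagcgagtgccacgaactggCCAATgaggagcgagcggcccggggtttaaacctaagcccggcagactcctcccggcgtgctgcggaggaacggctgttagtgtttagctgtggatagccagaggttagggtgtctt
Nek2: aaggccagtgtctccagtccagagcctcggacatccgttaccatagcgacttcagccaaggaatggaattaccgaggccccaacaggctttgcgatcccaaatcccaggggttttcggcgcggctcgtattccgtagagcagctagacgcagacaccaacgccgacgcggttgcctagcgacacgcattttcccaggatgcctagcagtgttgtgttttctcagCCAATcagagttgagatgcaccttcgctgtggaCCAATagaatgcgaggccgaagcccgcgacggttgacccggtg
Racgap1 (chr15:99651607-99651906, - strand), Kif23 (chr9:61946750-61947049, - strand) and Nusap1 (chr2:119618048-119618347, + strand) were lower in Lin- cells.
Racgap1: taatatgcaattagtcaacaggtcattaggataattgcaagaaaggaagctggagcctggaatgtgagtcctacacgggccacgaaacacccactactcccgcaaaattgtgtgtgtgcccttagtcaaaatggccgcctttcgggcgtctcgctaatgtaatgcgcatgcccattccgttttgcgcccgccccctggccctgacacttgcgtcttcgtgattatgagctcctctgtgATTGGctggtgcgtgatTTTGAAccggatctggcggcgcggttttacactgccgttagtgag
Kif23: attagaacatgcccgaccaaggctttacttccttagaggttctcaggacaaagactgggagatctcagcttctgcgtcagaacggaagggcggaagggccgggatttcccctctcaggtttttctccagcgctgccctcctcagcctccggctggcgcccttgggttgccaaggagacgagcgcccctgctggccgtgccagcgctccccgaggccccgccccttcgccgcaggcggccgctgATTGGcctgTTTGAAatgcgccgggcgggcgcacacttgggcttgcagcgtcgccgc
Nusap1: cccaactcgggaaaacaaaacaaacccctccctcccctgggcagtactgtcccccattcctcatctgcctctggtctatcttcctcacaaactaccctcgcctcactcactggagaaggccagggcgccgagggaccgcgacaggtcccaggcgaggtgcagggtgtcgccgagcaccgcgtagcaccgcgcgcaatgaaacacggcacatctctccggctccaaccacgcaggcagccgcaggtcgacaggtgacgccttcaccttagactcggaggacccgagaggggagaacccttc
Top2a (chr11:99024140-99024439, - strand) had no called difference between the fractions.
Top2a: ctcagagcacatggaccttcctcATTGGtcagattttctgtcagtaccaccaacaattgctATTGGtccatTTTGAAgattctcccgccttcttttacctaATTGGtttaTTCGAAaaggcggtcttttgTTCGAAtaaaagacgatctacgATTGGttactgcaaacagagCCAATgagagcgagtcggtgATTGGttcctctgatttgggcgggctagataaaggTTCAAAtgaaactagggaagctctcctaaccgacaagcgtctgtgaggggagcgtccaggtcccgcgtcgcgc
In Ccnb1 the first capital run is an E2F match and a CCAAT box that overlap.

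A CHR element was present in 21 of the 28 windows (75%), against 19.2% of all 32851 windows of the same length. The 2 sets are unlike: each of the 28 genes had 1 window, the nearest to its deposited start. All windows were kept for the comparison, whether or not the gene was expressed here. CCAAT boxes were present in 21 of 28 (75%), against 37.4% of all windows, and both motifs together in 18 of 28 (64.3%), against 7.53%. E2F matches were found in 3 of 28 (10.7%), close to the 9.57% of all windows. Cdk1 held 2 of them, Ect2 and Ccnb1 1 each. The CHR matches lay near the start, 22 of 30 at most 60 bases before it or 40 after it, and a median position of 5.5. CCAAT boxes lay further upstream, 36 of 44 within the 120 bases before the start, and a median of -55. The Top2a window held 4 CHR elements and 6 CCAAT boxes, the most of any of the 28. Birc5, Mad2l1, Nusap1 and Nuf2 had none of these letters in their windows. Genes at both ends of the order between fractions, Racgap1 and Kif23 at one and Cenpa at the other, held a CHR element within 20 bases of the start. The median log2 difference between fractions was 0.31 for the 21 genes with a CHR element and 0.44 for the 7 without.

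**Figure D1:**
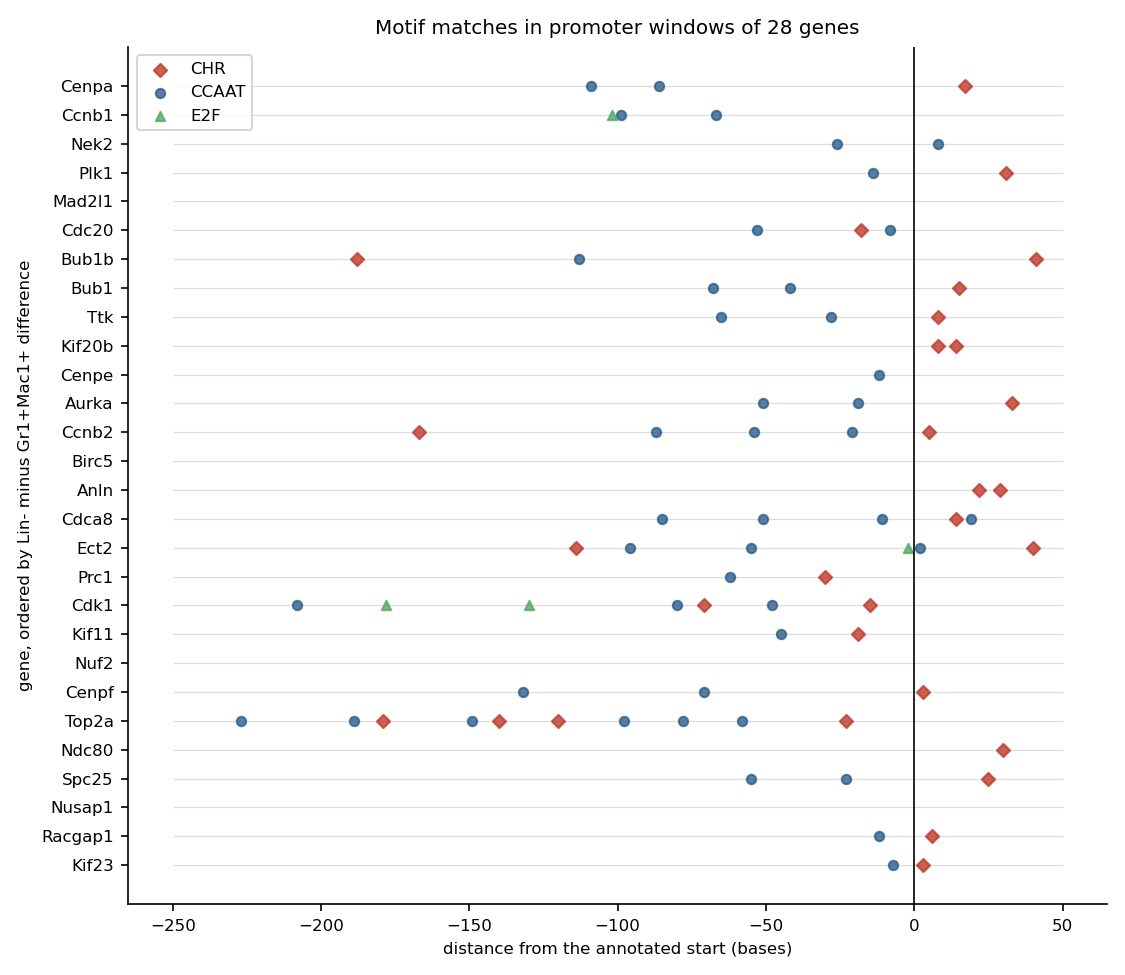
Positions of CHR (diamonds), CCAAT (circles) and E2F (triangles) matches in the promoter windows of 28 genes, in bases from the annotated start (vertical line), with genes ordered from the highest to the lowest log2 difference of Lin- minus Gr1+Mac1+ cells. CHR matches gather around the start, CCAAT matches upstream of it, and 4 genes show no match.

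Each of the 6 libraries had FPKM of at least 1 for 10795 to 11315 genes. The deposited intervals imply 213 to 8347 fragments per gene and library for the 33 genes, with a median of 858 to 1360 in a library, and a median counting error of 2.71% to 3.41%. Diap1 itself (chr18:37844825-37935411, mm10) had 6.07 (KO), 24.2 (Het) and 36.0 (WT) FPKM in Lin- cells, and 4.07 (KO), 34.1 (Het) and 57.1 (WT) FPKM in Gr1+Mac1+ cells, in the order of the labelled genotypes. Summed FPKM of the progenitor markers was 253 to 301 in Lin- and 114 to 125 in Gr1+Mac1+ libraries, and that of the measured Gr1 and Mac1 antigens was 36.5 to 151 and 1976 to 2260. Of the 8 progenitor markers, 7 were higher on average in Lin- cells and 1, Erg, was lower. Erg had 4.79 to 5.67 FPKM in Lin- libraries, against 13.3 to 14.2 FPKM in Gr1+Mac1+ libraries. The Het Lin- library stood apart, with a summed FPKM of neutrophil granule genes of 7937, against 66.7 in the KO library and less in the WT library of that fraction. Erythroid markers summed to 686 (KO), 699 (Het) and 674 (WT) FPKM in Lin- libraries, against 172 (KO), 222 (Het) and 334 (WT) FPKM in Gr1+Mac1+ libraries. Of the 8 erythroid markers, 7 were higher on average in Lin- cells and 1, Slc4a1, was lower. Slc4a1 averaged 30.5 FPKM in Lin- libraries, against 122 FPKM in Gr1+Mac1+ libraries. B-lineage markers summed to 10.9 to 25.6 FPKM in Lin- libraries, against 268 to 311 FPKM in Gr1+Mac1+ libraries. Megakaryocyte markers summed to 223 (KO), 456 (Het) and 332 (WT) FPKM in Lin- libraries, against 38.8 (KO), 53.2 (Het) and 41.6 (WT) FPKM in Gr1+Mac1+ libraries. Each of these lists had 4 to 8 genes, and no marker was at 0 in any library. The Lin- libraries thus held erythroid and megakaryocyte transcripts beside those of the progenitor list.

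All 33 genes were expressed in both fractions. Their summed FPKM was 1673 (KO), 1685 (Het) and 1639 (WT) in Lin- libraries, against 1268 (KO), 1239 (Het) and 1313 (WT) in Gr1+Mac1+ libraries. That was 0.264% to 0.279% of the FPKM of all genes in Lin- and 0.182% to 0.194% in Gr1+Mac1+ libraries. FPKM is scaled to transcript length, so levels can be set side by side between genes. Averaged over the 6 libraries, the survivin gene Birc5 was highest at 125 FPKM, followed by Top2a at 110.1, the centromeric histone Cenpa at 99.1 and cyclin A2 (Ccna2) at 87.0. The lowest were the checkpoint kinase Ttk at 11.2, the large kinetochore protein Cenpf at 10.8 and the kinesin Kif20b at 10.1. Within a protein complex, levels were uneven. The passenger complex ran from Birc5 at 125 FPKM to its kinase Aurkb at 44.9, and the kinetochore group ran from Cenpa to Cenpf.

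**Figure D2:**
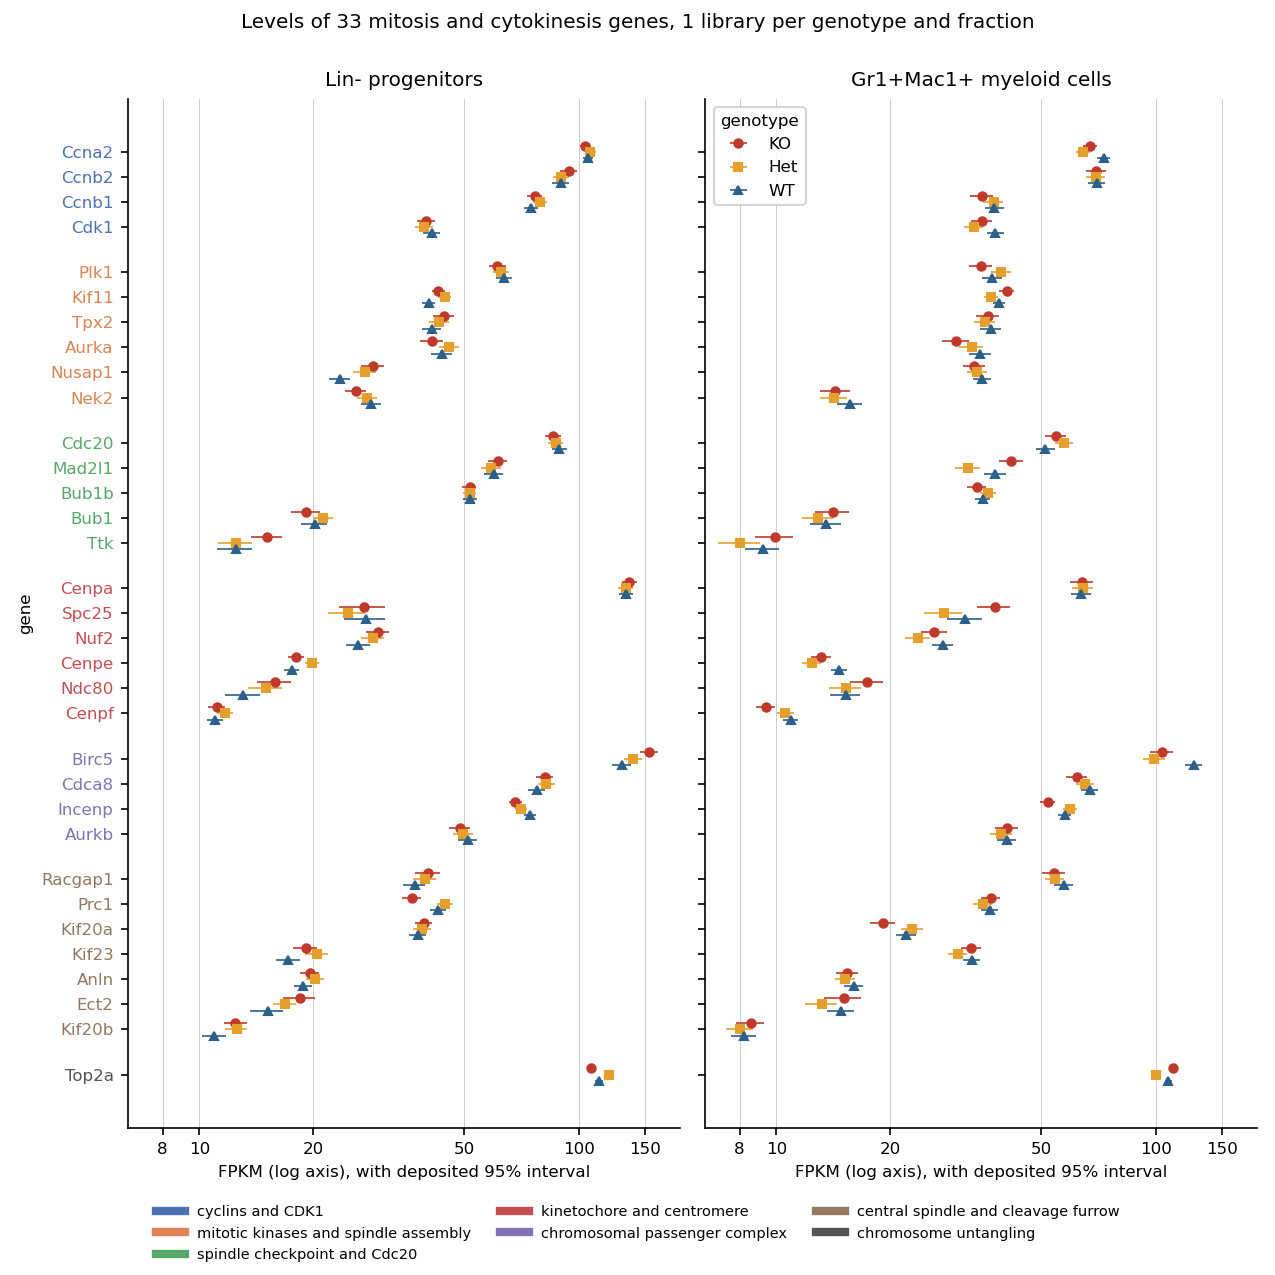
FPKM (log axis) of the 33 genes in Lin- progenitors (left) and Gr1+Mac1+ cells (right), with KO (circles), Het (squares) and WT (triangles) libraries, 1 each, and the deposited 95% interval as a bar; gene names are coloured by role. The 3 genotypes lie close together for nearly all genes, and Cenpa and Ccnb1 sit visibly further right in Lin- cells.

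The comparison of the fractions asks which division genes are higher in Lin- than in Gr1+Mac1+ cells. It was made with limma on log2(FPKM + 1) with the pool as a block, and adjusted p below is by the Benjamini-Hochberg method over 11489 genes. Of the 33 genes, 22 were higher in Lin- cells, 4 were lower and 7 were not called, at an adjusted p under 0.05. Of all genes tested, 51.6% were called higher and 30.4% lower, so the share of division genes called higher (22 of 33) was above that of all genes, and the share called lower was below it. Their median log2 difference of 0.33 was equal to the 0.33 of all genes, and 0.45 was the median of all genes in the same range of levels. Of the 5868 genes tested in that range, 3356 were called higher and 1676 lower. After the libraries were rescaled by the median ratio, which shifted the median of all genes from 0.33 to -0.01, 9 of the 33 were higher and 9 lower, both shares below the 38.3% and 39.8% of all genes, and 14 of the 33 changed sign. Without the Het pool, whose Lin- library stood apart, 19 were higher and 4 lower. The 10 most abundant genes took 8.72% to 10.5% of all FPKM in Lin- and 25.1% to 27.8% in Gr1+Mac1+ libraries; their part in this shift was not tested. The p-values rest on 3 pools that differ in genotype. In bulk RNA, fewer dividing cells and less RNA per cell cannot be told apart.

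Of the mitotic cyclins and their kinase, the 4 genes were all higher in Lin- cells, with a median of 0.50. Cyclin B1 (Ccnb1), the main partner of CDK1 at mitotic entry, had 76.7 (KO), 79.2 (Het) and 75.1 (WT) FPKM in Lin- cells, against 34.8 (KO), 37.4 (Het) and 37.6 (WT) FPKM in Gr1+Mac1+ cells. The fractions did not overlap and the means differed 2.10-fold, a log2 difference of 1.05 (SE 0.06, adjusted p = 0.000167), which stayed at 0.67 after rescaling. Cyclin A2 (Ccna2), which acts in S phase and G2, had 104 (KO), 107 (Het) and 106 (WT) FPKM in Lin- cells, against 67.2 (KO), 64.5 (Het) and 72.9 (WT) FPKM in Gr1+Mac1+ cells, a log2 difference of 0.63 (SE 0.07, adjusted p = 0.000893). Cyclin B2 (Ccnb2) had 94.1 (KO), 90.0 (Het) and 89.7 (WT) FPKM in Lin- cells, against 69.8 (KO), 69.6 (Het) and 70.1 (WT) FPKM in Gr1+Mac1+ cells. Its difference of 0.38 (SE 0.06, adjusted p = 0.00283) was about that of the median gene, and was not called after rescaling. Cdk1 averaged 39.9 ± 0.984 FPKM in Lin- and 35.3 ± 2.36 FPKM in Gr1+Mac1+ cells (SD, n = 3 pools), with a log2 difference of 0.18 (SE 0.06, adjusted p = 0.0462) as deposited and -0.20 after rescaling (adjusted p = 0.0315), so that its direction turned with the scaling. The ratio of cyclin B2 to cyclin B1 FPKM was 1.227 (KO), 1.136 (Het) and 1.195 (WT) in Lin- cells, against 2.01 (KO), 1.86 (Het) and 1.86 (WT) in Gr1+Mac1+ cells, a ratio that does not depend on the scaling of a library.

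Of the 6 kinases and spindle assembly genes, 4 were higher and 1 lower in Lin- cells, with a median of 0.33. Nek2, a kinase that separates the centrosomes, had 25.9 (KO), 27.7 (Het) and 28.4 (WT) FPKM in Lin- cells, against 14.3 (KO), 14.2 (Het) and 15.6 (WT) FPKM in Gr1+Mac1+ cells. Every Lin- library was above every Gr1+Mac1+ library, with a log2 difference of 0.85 (SE 0.06, adjusted p = 0.000305). Plk1, the Polo kinase of mitotic entry and centrosome maturation, had 61.0 (KO), 62.4 (Het) and 63.5 (WT) FPKM in Lin- cells, against 34.7 (KO), 39.2 (Het) and 37.1 (WT) FPKM in Gr1+Mac1+ cells, a log2 difference of 0.74 (SE 0.06, adjusted p = 0.000429). Both stayed higher after rescaling, at 0.48 and 0.36. The spindle pole kinase Aurka (0.42) and its activator Tpx2 (0.24) were called only as deposited, and Tpx2 turned to -0.14 after rescaling. The ratio of Aurka to Tpx2 FPKM was 0.929 (KO), 1.06 (Het) and 1.06 (WT) in Lin- cells, against 0.825 (KO), 0.924 (Het) and 0.937 (WT) in Gr1+Mac1+ cells. Kif11, the kinesin that pushes the spindle poles apart, had 42.7 (KO), 44.4 (Het) and 40.3 (WT) FPKM in Lin- cells, against 40.5 (KO), 36.8 (Het) and 38.7 (WT) FPKM in Gr1+Mac1+ cells. Its difference of 0.13 (SE 0.07, adjusted p = 0.147) was not called as deposited, and after rescaling it was -0.25 (adjusted p = 0.0279). Nusap1, which bundles spindle microtubules near chromatin, went the other way, with 28.7 (KO), 27.4 (Het) and 23.5 (WT) FPKM in Lin- cells, against 33.3 (KO), 33.8 (Het) and 34.9 (WT) FPKM in Gr1+Mac1+ cells. It was lower in Lin- cells in each pool, with a log2 difference of -0.35 (SE 0.09, adjusted p = 0.0187), and the call was lost without the WT pool (-0.25).

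The 5 checkpoint genes were all higher in Lin- cells, with a median of 0.55, and none was lower under either scaling. Mad2l1, the checkpoint protein that binds CDC20, had 61.3 (KO), 58.8 (Het) and 59.7 (WT) FPKM in Lin- cells, against 41.7 (KO), 32.0 (Het) and 37.8 (WT) FPKM in Gr1+Mac1+ cells, a log2 difference of 0.68 (SE 0.08, adjusted p = 0.00144). Cdc20, the APC/C activator that the checkpoint holds back, had 85.6 (KO), 87.0 (Het) and 88.9 (WT) FPKM in Lin- cells, against 54.6 (KO), 57.5 (Het) and 51.2 (WT) FPKM in Gr1+Mac1+ cells, a log2 difference of 0.67 (SE 0.07, adjusted p = 0.000746). Bub1b, a further part of the inhibitory complex, was nearly flat within Lin- cells, with 51.6 (KO), 51.7 (Het) and 51.7 (WT) FPKM in Lin- cells, against 33.8 (KO), 36.1 (Het) and 35.0 (WT) FPKM in Gr1+Mac1+ cells. These 3 remained higher after rescaling, at 0.30, 0.29 and 0.17. The checkpoint kinases Bub1 (0.54) and Ttk (0.51) were called as deposited and gave 0.18 and 0.16, not called, after rescaling.

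Kinetochore genes did not move as a block. Cenpa, the histone H3 variant that marks the centromere, had 136 (KO), 133 (Het) and 133 (WT) FPKM in Lin- cells, against 64.1 (KO), 64.2 (Het) and 63.7 (WT) FPKM in Gr1+Mac1+ cells. It averaged 134 ± 1.66 FPKM in Lin- and 64.0 ± 0.252 FPKM in Gr1+Mac1+ cells (SD, n = 3 pools). With Ccnb1 it showed the largest difference of the 33 genes, 2.09-fold between means and 1.06 (SE 0.05, adjusted p = 0.000139) in log2, with differences of 1.07 (KO), 1.04 (Het) and 1.05 (WT) in the 3 pools. The kinesin Cenpe, which carries chromosomes to the spindle equator, was higher by 0.44 (SE 0.10, adjusted p = 0.0119) and was not called after rescaling (0.07). Subunits of the NDC80 complex, which grips the microtubule, differed in their calls. Ndc80, at -0.12 (SE 0.07, adjusted p = 0.18), and Nuf2, at 0.13 (SE 0.09, adjusted p = 0.241), were not called. Spc25 was lower, at -0.27 (SE 0.09, adjusted p = 0.0373). Spc24, a further subunit that is not among the 33 genes, was higher, at 0.51 (SE 0.08, adjusted p = 0.00397). After rescaling Spc24 stood at 0.13 and was not called. Spc25 had 27.1 (KO), 24.7 (Het) and 27.5 (WT) FPKM in Lin- cells, against 37.6 (KO), 27.7 (Het) and 31.5 (WT) FPKM in Gr1+Mac1+ cells. Its fractions did not overlap, but the WT Lin- library (27.5 FPKM) nearly met the Het Gr1+Mac1+ library (27.7 FPKM). Ndc80 had 15.8 (KO), 15.0 (Het) and 13.0 (WT) FPKM in Lin- cells, against 17.3 (KO), 15.2 (Het) and 15.3 (WT) FPKM in Gr1+Mac1+ cells, groups that overlapped. The call of Spc25 was lost without the WT pool (-0.31) and without the KO pool (-0.17). After rescaling, Ndc80 (-0.49), Spc25 (-0.64) and Cenpf (-0.24) were lower in Lin- cells and Cenpa (0.67) was the only one of the 6 that was higher. Nuf2 then stood at -0.25 and was not called (adjusted p = 0.0515). Cenpf had 11.1 (KO), 11.7 (Het) and 10.995 (WT) FPKM in Lin- cells, against 9.37 (KO), 10.6 (Het) and 10.9 (WT) FPKM in Gr1+Mac1+ cells.

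The 4 passenger complex genes, which correct faulty attachments and later move to the central spindle, lay close together. Their log2 differences were 0.36 for Birc5, 0.33 for the scaffold Incenp, 0.31 for borealin (Cdca8) and 0.30 for Aurkb. Incenp had 68.1 (KO), 70.6 (Het) and 74.6 (WT) FPKM in Lin- cells, against 51.9 (KO), 59.5 (Het) and 57.6 (WT) FPKM in Gr1+Mac1+ cells. All 4 were called higher as deposited and none was called after rescaling, where each turned slightly negative (-0.08 to -0.02). Among the 33 genes, the difference between fractions varied most from pool to pool for Birc5, which had 154 (KO), 139.5 (Het) and 130.0 (WT) FPKM in Lin- cells, against 104 (KO), 99.2 (Het) and 126 (WT) FPKM in Gr1+Mac1+ cells. Its fractions were 0.56 (KO), 0.49 (Het) and 0.04 (WT) apart in log2, and the call (adjusted p = 0.0439) was lost without the Het pool (0.30) and without the KO pool (0.27). Cdca8 was steadier, with 81.3 (KO), 82.2 (Het) and 77.5 (WT) FPKM in Lin- cells, against 62.0 (KO), 65.3 (Het) and 67.1 (WT) FPKM in Gr1+Mac1+ cells, and lost its call without the KO pool (0.27). The ratio of Aurkb to Incenp FPKM was 0.714 (KO), 0.702 (Het) and 0.684 (WT) in Lin- cells, against 0.779 (KO), 0.659 (Het) and 0.703 (WT) in Gr1+Mac1+ cells, ranges that overlap.

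Genes of the central spindle and furrow split in both directions. Kif20a, the kinesin that brings the passenger complex to the midzone, had 39.0 (KO), 38.7 (Het) and 37.6 (WT) FPKM in Lin- cells, against 19.1 (KO), 22.8 (Het) and 22.0 (WT) FPKM in Gr1+Mac1+ cells, a log2 difference of 0.83 (SE 0.08, adjusted p = 0.000678). Kif23 and Racgap1, which together form centralspindlin, the complex that bundles midzone microtubules and recruits ECT2, were both lower in Lin- cells. Kif23 had 19.1 (KO), 20.4 (Het) and 17.2 (WT) FPKM in Lin- cells, against 32.7 (KO), 30.1 (Het) and 32.7 (WT) FPKM in Gr1+Mac1+ cells. It averaged 18.9 ± 1.65 FPKM in Lin- and 31.8 ± 1.51 FPKM in Gr1+Mac1+ cells (SD, n = 3 pools). Its fractions did not overlap, the mean in Lin- cells was 0.593 of that in Gr1+Mac1+ cells, and the log2 difference was -0.73 (SE 0.09, adjusted p = 0.00158). Racgap1 had 40.01 (KO), 39.3 (Het) and 36.9 (WT) FPKM in Lin- cells, against 53.9 (KO), 54.3 (Het) and 57.3 (WT) FPKM in Gr1+Mac1+ cells, a log2 difference of -0.50 (SE 0.07, adjusted p = 0.00219). Both were lower in every pool and under either scaling, at -1.10 and -0.88 after rescaling. The ratio of Kif20a to Kif23 FPKM was 2.05 (KO), 1.89 (Het) and 2.20 (WT) in Lin- cells, against 0.584 (KO), 0.759 (Het) and 0.671 (WT) in Gr1+Mac1+ cells. The ratio of the centralspindlin partners, Kif23 to Racgap1, was 0.477 (KO), 0.520 (Het) and 0.465 (WT) in Lin- cells, against 0.606 (KO), 0.554 (Het) and 0.571 (WT) in Gr1+Mac1+ cells. Of the others, Kif20b (0.48), a kinesin of late cytokinesis, and the furrow scaffold anillin (Anln, 0.31) were higher as deposited, and Anln lost its call without the KO pool (0.31). The RhoA activator Ect2 had 18.4 (KO), 16.8 (Het) and 15.1 (WT) FPKM in Lin- cells, against 15.1 (KO), 13.2 (Het) and 14.8 (WT) FPKM in Gr1+Mac1+ cells. The midzone bundler Prc1 had 36.3 (KO), 44.4 (Het) and 42.6 (WT) FPKM in Lin- cells, against 36.8 (KO), 35.0 (Het) and 36.6 (WT) FPKM in Gr1+Mac1+ cells. Neither was called, at 0.21 (SE 0.09, adjusted p = 0.0771) for Ect2 and 0.18 (SE 0.09, adjusted p = 0.13) for Prc1.

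Top2a, the topoisomerase that untangles sister chromatids, was abundant in both fractions. It had 108 (KO), 120.0 (Het) and 113 (WT) FPKM in Lin- cells, against 111 (KO), 100.2 (Het) and 108 (WT) FPKM in Gr1+Mac1+ cells. The fractions overlapped, and the log2 difference was 0.10 (SE 0.08, adjusted p = 0.316); after rescaling it was -0.29 (adjusted p = 0.0248). Leaving out each pool in turn left 17 to 20 genes higher and 2 to 4 lower, and 7 of the 26 called genes lost the call at least once. Cdk1 and Tpx2 lost it under each omission, at 0.15 to 0.21 for Cdk1 and 0.21 to 0.28 for Tpx2, while 11 genes kept theirs under every alternative tried. Each omission leaves fewer residual degrees of freedom, so a call can be lost without a change in the difference. A lost call therefore does not show that the omitted pool carried it.

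**Figure D3:**
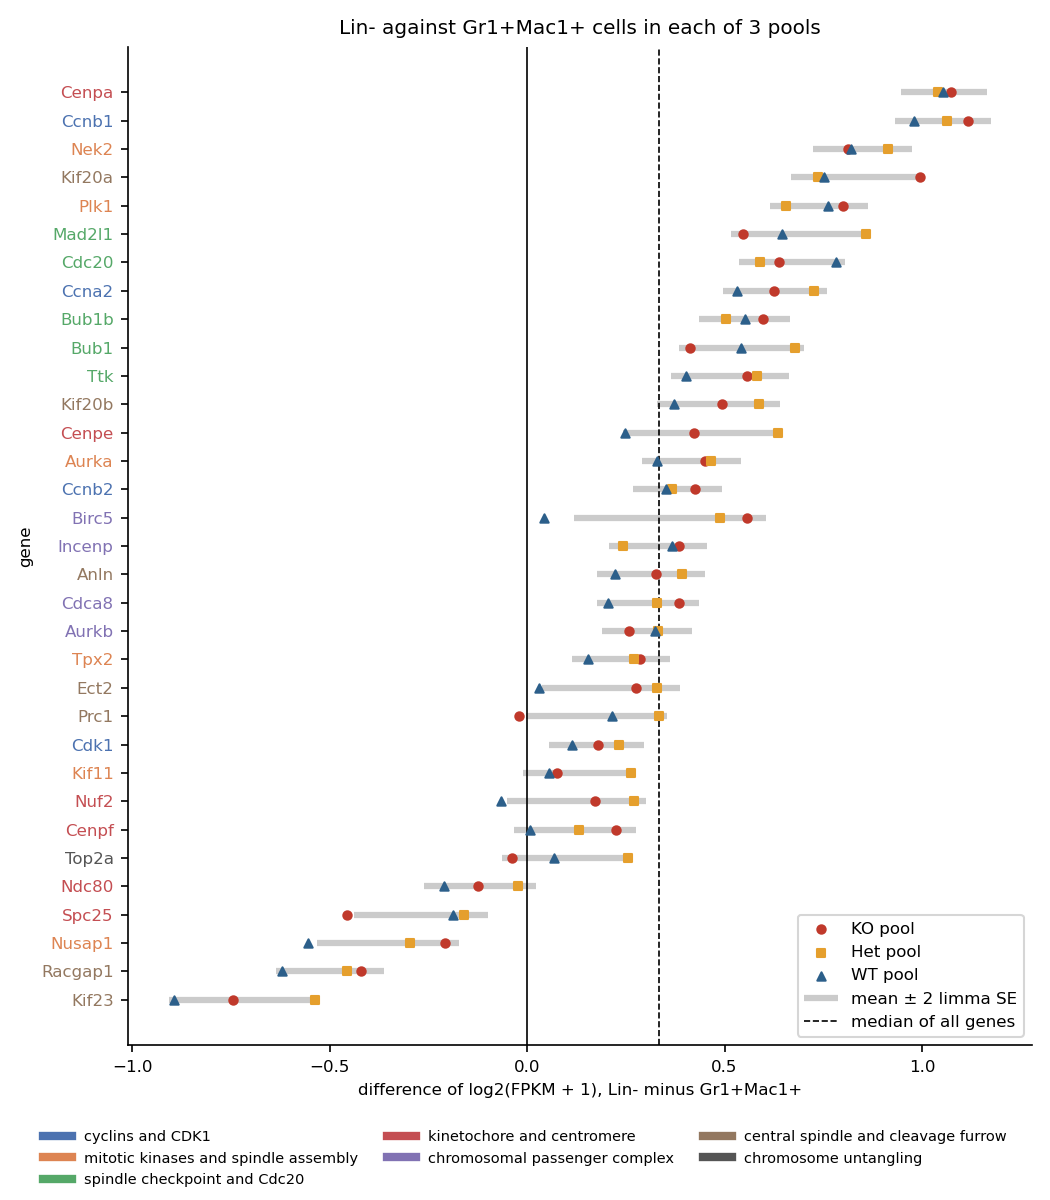
Difference of log2(FPKM + 1), Lin- minus Gr1+Mac1+, for the 33 genes in the KO (circles), Het (squares) and WT (triangles) pools, with the mean ± 2 limma SE as a bar and the median of all 11489 genes as a dashed line. Cenpa and Ccnb1 lie near 1 in every pool, and Kif23, Racgap1, Nusap1 and Spc25 lie below 0 in every pool.

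Other genes of the same machinery were read from further lists. The other kinetochore genes were mostly higher in Lin- cells, 27 of 32 with 1 lower and a median of 0.66, led by Zwint, an anchor of the checkpoint complex, at 1.46 (SE 0.08, adjusted p = 0.00015). Condensin, which compacts chromosomes, was higher for 8 of 8 genes, with a median of 0.59 and Smc2 at 0.86. Cohesin and separase genes were higher for 9 of 12 with none lower (median 0.53), with the cohesin release factor Wapal at 1.24. APC/C subunits were higher for 13 of 17 with none lower (median 0.65), with Anapc1 at 1.40. Other mitotic kinesins and spindle proteins were higher for 15 of 17 (median 0.40), with Hmmr at 0.83. These medians compare with 0.33 for the 33 genes and for all genes. Of all genes, 51.6% were called higher and 30.4% lower as deposited. After rescaling, 20 of 32 kinetochore genes, 4 of 8 condensin, 6 of 12 cohesin, 10 of 17 APC/C and 5 of 17 spindle genes were called higher, and 3, 0, 2, 3 and 1 were lower. Of all genes, 38.3% were then higher and 39.8% lower. The 5 of 17 spindle genes were below the share called higher among all genes, and 4 of 8 and 6 of 12 were not far above it.

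The RhoA and contractile ring list, which includes Diap1 itself, was higher for 5 of 16 genes tested and lower for 8, with a median of -0.22. It spanned the widest range of the lists compared. Non-muscle myosin Myh10 had 53.7 (KO), 47.5 (Het) and 52.5 (WT) FPKM in Lin- cells, against 2.95 (KO), 4.65 (Het) and 4.88 (WT) FPKM in Gr1+Mac1+ cells. Myh9, the other abundant non-muscle myosin, had 82.9 (KO), 94.1 (Het) and 81.0 (WT) FPKM in Lin- cells, against 274 (KO), 327 (Het) and 270.0 (WT) FPKM in Gr1+Mac1+ cells. The Diap1 paralogs also diverged, with Diap3 having 20.3 (KO), 20.6 (Het) and 19.7 (WT) FPKM in Lin- cells, against 8.90 (KO), 10.6 (Het) and 11.5 (WT) FPKM in Gr1+Mac1+ cells, a log2 difference of 0.91 (SE 0.10, adjusted p = 0.000868). Diap2 had 0.798 (KO), 0.879 (Het) and 0.634 (WT) FPKM in Lin- cells, against 6.58 (KO), 6.09 (Het) and 7.07 (WT) FPKM in Gr1+Mac1+ cells, a log2 difference of -2.10 (SE 0.11, adjusted p = 0.000148). Rhoa was lower in Lin- cells (-0.67) and the furrow kinase Cit was higher (0.87). Abscission and ESCRT-III genes, which sever the last bridge between daughter cells, were higher for 6 and lower for 10 of 17, with a median of -0.31. After rescaling, 4 of the ring genes were higher and 10 lower, and 0 of the abscission genes were higher and 11 lower. The shares of all genes called higher and lower were 51.6% and 30.4% as deposited, and 38.3% and 39.8% after rescaling. Cep55, which brings the ESCRT machinery to the midbody, had 2.29 (KO), 2.87 (Het) and 2.22 (WT) FPKM in Lin- cells, against 12.7 (KO), 12.6 (Het) and 13.0 (WT) FPKM in Gr1+Mac1+ cells. It was lower in Lin- cells, with a log2 difference of -1.997 (SE 0.10, adjusted p = 0.000125), the same direction as centralspindlin. The 30 DNA replication genes were all higher in Lin- cells, with a median of 1.32, and 27 of 30 remained called after rescaling. Among them, the helicase subunit Mcm2 had 162 (KO), 164 (Het) and 156 (WT) FPKM in Lin- cells, against 47.2 (KO), 54.2 (Het) and 55.7 (WT) FPKM in Gr1+Mac1+ cells. The median of the 33 mitosis and cytokinesis genes, 0.33, was thus far below that of the replication genes in the same libraries.

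**Figure D4:**
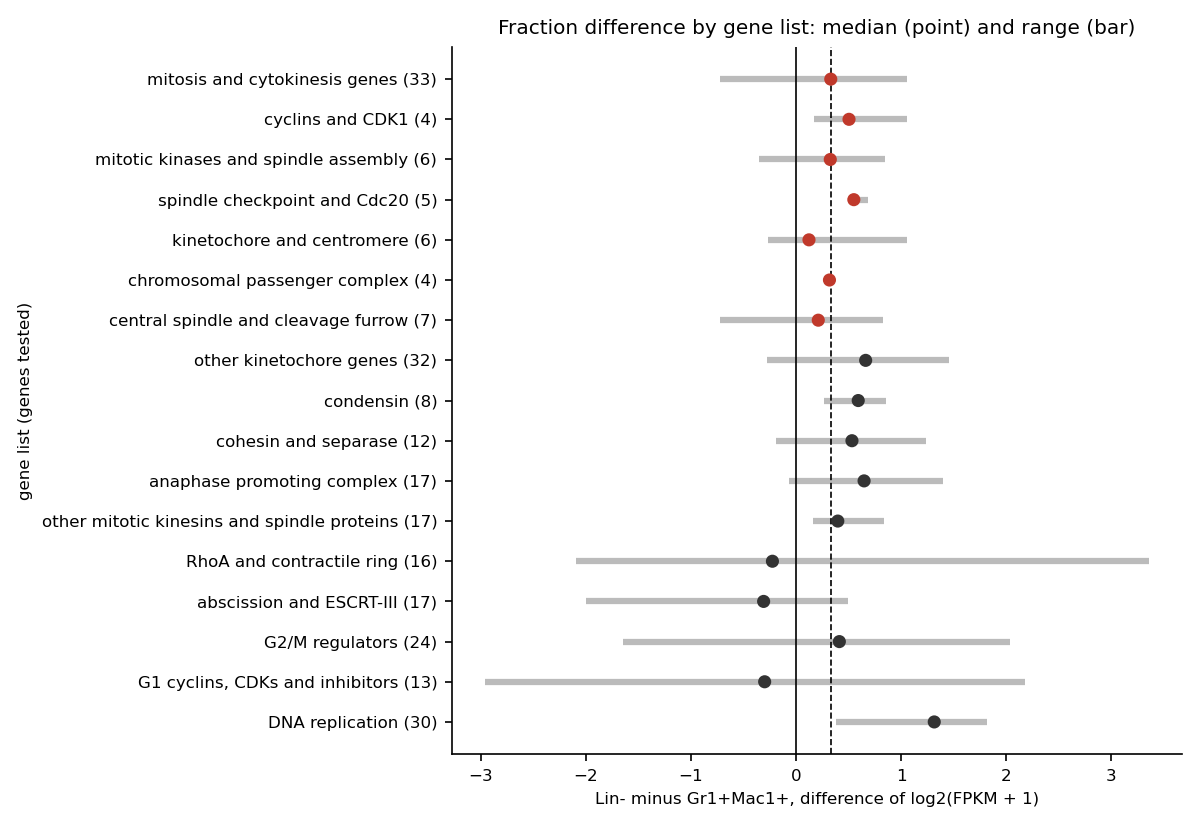
Median (point) and range (bar) of the difference of log2(FPKM + 1), Lin- minus Gr1+Mac1+, for the 33 genes and their role groups (red) and for other lists (black), with the number of genes tested in brackets and the median of all genes as a dashed line. DNA replication genes have the highest median at 1.32, and the abscission list the lowest at -0.31.

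The genotype comparisons ask whether transcripts of the division machinery differ with loss of the formin gene Diap1. Each rests on 1 library against 1 library, so no test was possible and values are differences between those libraries; the comparisons also share libraries with each other. No gene of the 33 reached a difference of at least 2-fold with FPKM of at least 5 and separate deposited intervals. Folds here are on the log2(FPKM + 1) scale. Of all genes, that size was reached upward and downward by 0.137% and 0.0365% (KO against WT) and 1.3% and 0.0639% (Het against WT) in Lin- cells, and by 0.0444% and 0.0976% (KO against WT) and 0.0355% and 0.0976% (Het against WT) in Gr1+Mac1+ cells. For KO against Het the shares were 0.0913% and 1.16% (Lin-) and 0.0621% and 0.071% (Gr1+Mac1+). At such shares among all genes, a count of 0 of 33 is near the background. In Lin- cells the largest fold difference among the 33 was 1.22 (KO against WT) and 1.18 (Het against WT), and in Gr1+Mac1+ cells it was 1.21 and 1.27, with the counting intervals of all 33 reaching at most 1.37, 1.30, 1.36 and 1.38. For KO against Het the largest was 1.22 (Lin-) and 1.35 (Gr1+Mac1+), with intervals reaching 1.35 and 1.56. Intervals cover counting error only. Of all genes, 86.5% and 80.7% (Lin-) and 84.9% and 89.5% (Gr1+Mac1+) lay within the same range as the 33 in these comparisons.

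Between genotypes most of the 33 genes differed little within a fraction. The highest library was less than 1.1 times the lowest for 18 genes (Lin-) and 16 genes (Gr1+Mac1+), and 1.2 times or more for 5 and 4. As shares that was 54.5% and 48.5% of the 33 genes under 1.1 times, beside 42.9% (Lin-) and 31.6% (Gr1+Mac1+) of all genes in the same range of mean levels, and 33.6% and 25% of all genes tested. At 1.2 times or more stood 15.2% and 12.1% of the 33 genes, beside 23.6% (Lin-) and 31.5% (Gr1+Mac1+) of the genes in that range. No test was run on these shares. Over the 3 libraries the median coefficient of variation was 4.60% (Lin-) and 5.32% (Gr1+Mac1+), against a median counting error of 2.74% and 3.05%. For all genes in the same range of levels the median coefficient of variation was 5.68% (Lin-) and 6.99% (Gr1+Mac1+). The flattest in Lin- cells was Bub1b and in Gr1+Mac1+ cells Ccnb2, at 0.161% and 0.359%.

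In Lin- cells the KO library differed from the WT library beyond the deposited intervals for 3 higher and 2 lower genes, where 6.16% and 7.38% of all genes did so. Nusap1 was higher in the KO library (0.28 in log2) and also in the Het library (0.21), with 28.7 (KO) and 27.4 (Het) against 23.5 (WT) FPKM. Prc1 was lower in the KO library than in both others, with 36.3 (KO) against 44.4 (Het) and 42.6 (WT) FPKM. Birc5 (0.24) and Ect2 (0.27) were higher and Incenp (-0.13) was lower in the KO than in the WT library. The Het library had 5 genes higher than WT and 0 lower, where 8.41% and 6.2% of all genes were apart. These were Nusap1, Kif23 (0.24), Cenpe (0.17), Kif11 (0.14) and Top2a (0.08). The median of the 33 genes was 0.03 for KO against WT and 0.07 for Het against WT, with 20 and 23 of 33 above 0, beside medians within 0.01 of 0 for all genes. Against the Het library, the KO library had 0 genes higher and 3 lower (3.57% and 7.4% of all genes), namely Prc1 (-0.28), Top2a (-0.15) and Cenpe (-0.14). Marker lists differed in these comparisons too. Their counts are by the sign of the difference, whether or not the intervals were separate. Of all 10952 genes in KO against WT, 5554 lay above 0 and 5384 below 0. Neutrophil granule markers were higher for 8 of 8 genes in Het against WT (median 6.91) and lower for 8 of 8 in KO against Het (-6.75). Megakaryocyte markers were lower for 5 of 6 genes in KO against WT (median -0.42), higher for 6 of 6 in Het against WT (0.51) and lower for 6 of 6 in KO against Het (-0.91). Progenitor markers were higher for 7 of 8 genes (0.20) and T and NK cell markers lower for 6 of 7 (-0.59) in KO against WT. Separate intervals were found for 4 of these progenitor markers and 2 of these T and NK cell markers. Primary granule markers were higher for 6 of 6 genes in Het against WT (0.59) and lower for 6 of 6 in KO against Het (-0.42). Their part in the differences of the division genes was not tested.

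In Gr1+Mac1+ cells the KO library had 0 genes higher than the WT library and 4 lower, where 5.25% and 5.57% of all genes were apart. Birc5 was lower in both the KO and the Het library, with 104 (KO) and 99.2 (Het) against 126 (WT) FPKM, or -0.28 and -0.34 in log2. Cenpf, Incenp and Kif20a were lower in the KO library than in both others, at 9.37 (KO) against 10.6 (Het) and 10.9 (WT) FPKM for Cenpf, at 51.9 (KO) against 59.5 (Het) and 57.6 (WT) FPKM for Incenp, and at 19.1 (KO) against 22.8 (Het) and 22.0 (WT) FPKM for Kif20a. Kif20a (chr18:34624624-34633277) lies on the same chromosome as Diap1, and the part of its position was not tested. Incenp was the only one of the 33 genes that was apart in the same direction in both fractions of KO against WT (-0.13 and -0.15). The Het library had 1 gene higher, Cdc20 (0.16), and 7 lower than WT, where 8.27% and 8.49% of all genes were apart. The 7 were Birc5, Mad2l1 (-0.23), Cenpe (-0.22), Nuf2 (-0.21), Cdk1 (-0.19), Ccna2 (-0.17) and Top2a (-0.11). The median of the 33 genes was -0.05 for KO against WT and -0.07 for Het against WT, with 21 and 27 of 33 below 0, again beside medians within 0.01 of 0 for all genes. Erythroid markers were lower in the same libraries for 8 of 8 genes, with medians of -0.91 (KO against WT) and -0.54 (Het against WT), and all had separate intervals. Marker counts are again by the sign of the difference. Primary granule markers of promyelocytes were higher for 6 of 6 genes in KO against WT (0.24) and for 4 of 6 in Het against WT (0.08). Neutrophil granule markers were higher for 8 of 8 genes in KO against WT (0.11) and lower for 7 of 8 in Het against WT (-0.09). Megakaryocyte markers were higher for 6 of 6 genes in Het against WT (0.27), 1 of them with separate intervals. The part of these markers in the lower division transcripts was not tested. Against the Het library, the KO library had 4 genes higher and 3 lower (9.46% and 9.13% of all genes), with Spc25 (0.43), Mad2l1 (0.37), Top2a (0.15) and Kif11 (0.13) higher and Kif20a (-0.25), Incenp (-0.19) and Cenpf (-0.16) lower. The largest of these was Spc25, with 37.6 (KO) against 27.7 (Het) FPKM and 31.5 FPKM in the WT library. In KO against Het, neutrophil granule markers were higher for 8 of 8 genes (0.20), erythroid markers lower for 7 of 8 (-0.36) and megakaryocyte markers lower for 6 of 6 (-0.51). Separate intervals were found for 8, 5 and 0 of these, and the part of the markers was not tested. Separate intervals with opposite directions in the 2 fractions were found for 1 of 33 genes in KO against WT (Birc5; 1.4% of all genes), for 2 of 33 in Het against WT (Cenpe and Top2a; 2.34%) and for 1 of 33 in KO against Het (Top2a; 2.41%).

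**Figure D5:**
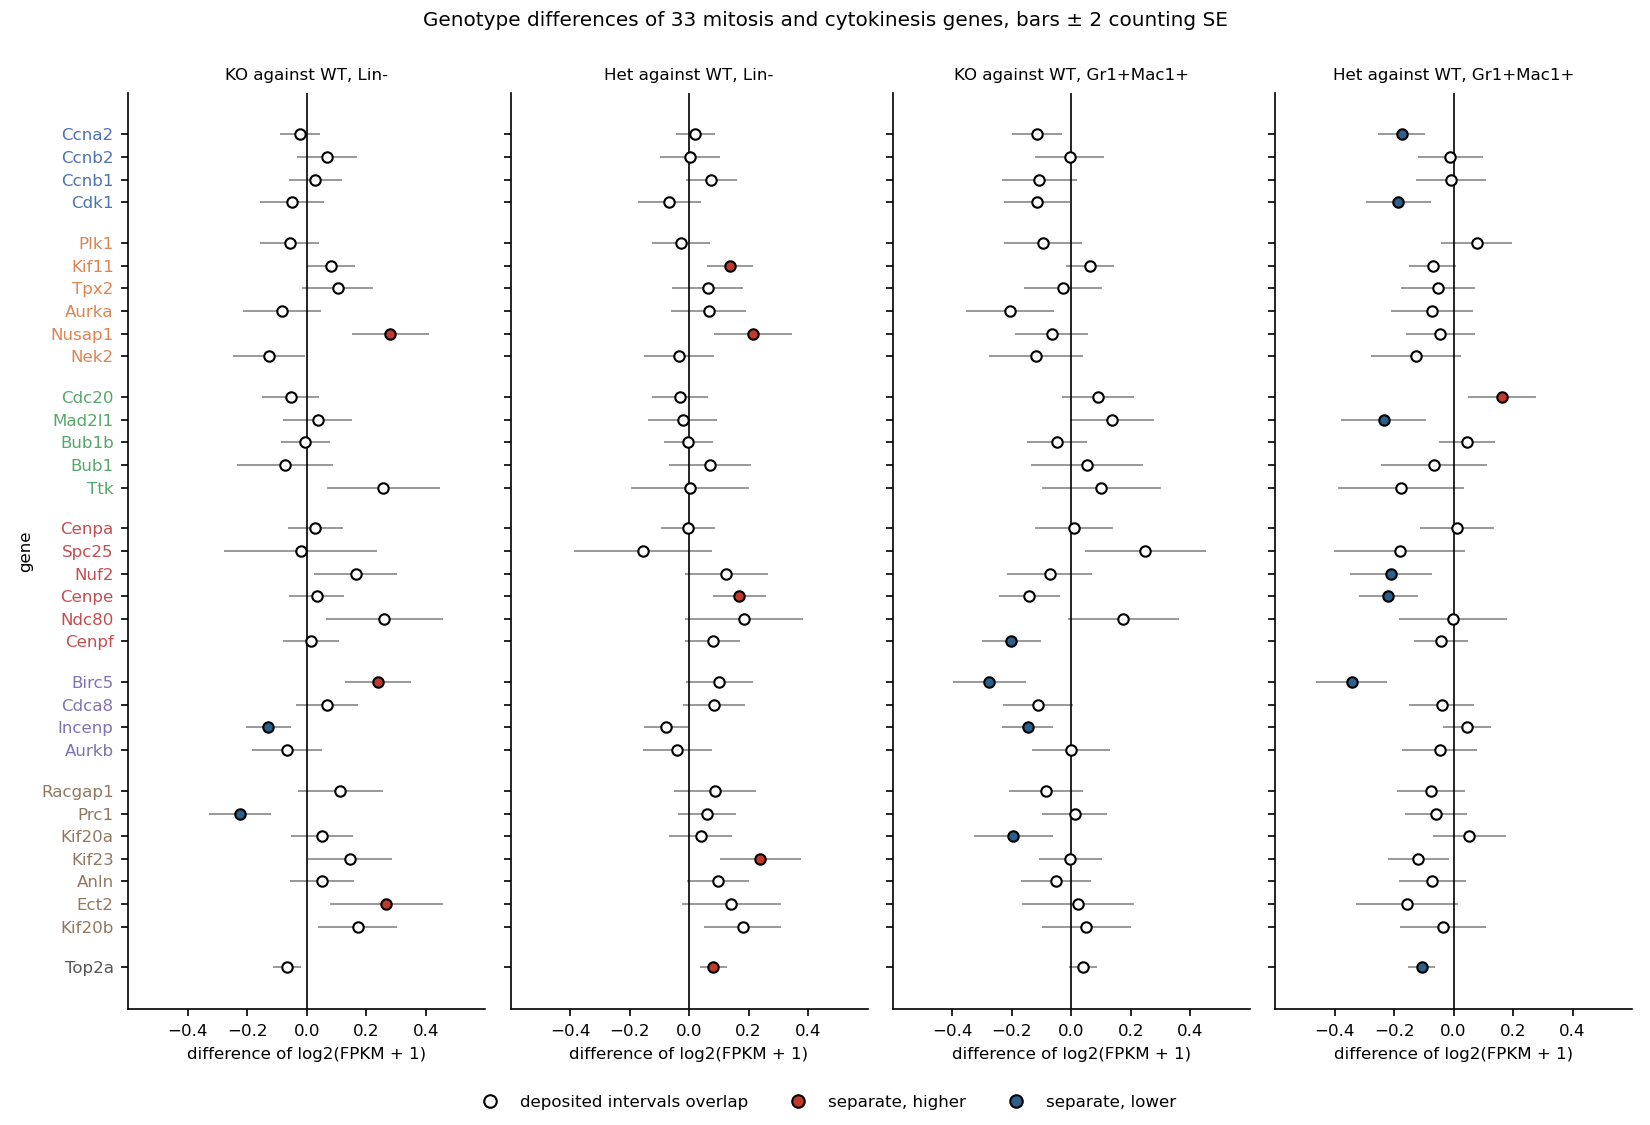
Difference of log2(FPKM + 1) for the 33 genes between single libraries, KO against WT and Het against WT in Lin- (left panels) and Gr1+Mac1+ cells (right panels), with ± 2 counting SE as a bar; filled points have deposited intervals that do not overlap. All values lie between -0.34 and 0.28, and filled points are 5 in each of the Lin- panels, 4 for KO and 8 for Het in the Gr1+Mac1+ panels.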

How the data were processed

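Per the labels' protocols, marrow of 4 mice per genotype was pooled, both fractions came from the same pool, and total RNA was sequenced by Illumina protocols. The authors deposited FPKM (fragments scaled to transcript length and library total) with lower and upper bounds and a status for 23746 loci per library. Per the submitters' processing notes, TopHat2 2.0.7, Cufflinks 2.0.2 and mm10 were used; which step each did, and the annotation, are not stated there. FPKM is relative to the library total, so a few very abundant genes can shift all others. The distance from a value to its deposited 95% bound was read as 2 SD, which gives the implied fragment numbers and the counting error; intervals cover counting error only. Fragments that match near-identical copies, or genes that overlap, may be misassigned.

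The 33 genes and all lists were chosen with earlier results of these data known. For the fractions, log2(FPKM + 1) was fitted in limma 3.58.1 under R 4.3.3 using a mean-variance trend, pool as block, and Benjamini-Hochberg adjustment over 11489 genes averaging an FPKM of 1 or more and status OK in all libraries. The pairing comes from the protocol; deviations of a pool's fractions correlated across genes by -0.012 (KO), -0.058 (Het) and 0.100 (WT). The 2 residual degrees of freedom also hold the interaction of genotype and fraction, and p-values measure only the spread over 3 pools of different genotype. Genotypes, with 1 library each, were compared by the size rule and by separate intervals, over genes averaging an FPKM of 1 or more in that fraction. A fold change on the log2(FPKM + 1) scale understates low genes.

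Values in every library are given for genes in which the KO and Het libraries, or the KO library and both others, were apart in one direction, for the 5 largest and 5 smallest fraction differences and for the 2 most abundant of each role group; others named were chosen after their values were seen. From other lists up to 4 called genes with the largest differences were eligible, with the Diap1 paralogs, Rhoa, Cit, Mcm2, Spc24, Erg and Slc4a1 added. Of the list symbols, 6 were matched by an older symbol, and Ly6g was not matched. Alternatives were pseudocounts of 0.1 and 5, other filters on low values, rescaling by the median ratio, no block, each pool left out, 1.5-fold and 3-fold sizes, and intervals 1.5 times as wide. Tables were handled with pandas 2.3.3 and numpy 2.4.6 in Python 3.11.15, and plots drawn with matplotlib 3.10.9.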

Additional observations from a re-analysis of the deposited data

Results flagged for a closer look

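In 3 genes the difference between the same 2 genotypes had separate deposited intervals in both fractions and opposite directions. Each value compares 1 library with 1 library, and the difference between fractions was not tested. This was 1 of 33 genes in KO against WT, 2 of 33 in Het against WT and 1 of 33 in KO against Het, where 1.4%, 2.34% and 2.41% of all genes did so. Birc5 in KO against WT was higher by 0.24 in log2 in Lin- cells and lower, at -0.28, in Gr1+Mac1+ cells. Cenpe in Het against WT stood at 0.17 in Lin- and -0.22 in Gr1+Mac1+ cells. For Het against WT, Top2a stood at 0.08 (Lin-) and -0.11 (Gr1+Mac1+), and for KO against Het at -0.15 (Lin-) and 0.15 (Gr1+Mac1+). Top2a has the smallest counting error of the 33 genes, so small differences separate its intervals. The Het Lin- library that enters the Cenpe and Top2a values is the one with high neutrophil granule transcripts; their part was not tested.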

How the results depend on the processing

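Rescaling by the median ratio moved the fraction comparison most, to 9 genes higher and 9 lower in Lin- cells, against 22 and 4 as deposited. It reversed Ccnb2 (-0.0034), Birc5 (-0.02), Incenp (-0.05), Anln (-0.06), Aurkb (-0.08), Cdca8 (-0.08), Tpx2 (-0.14), Ect2 (-0.15), Prc1 (-0.20), Cdk1 (-0.20), Cenpf (-0.24), Kif11 (-0.25), Nuf2 (-0.25) and Top2a (-0.29). The rescaling itself subtracts the shift of all genes. Leaving out each pool gave 17 to 20 higher and 2 to 4 lower, with 2 lower without the WT pool. Without the pool as a block the counts were 22 higher and 3 lower, with the call of Spc25 lost and no other. Without a filter on low values they were 21 and 3, and with pseudocounts of 0.1 or 5 they were 22 and 4. Between genotypes, the size rule passed 0 of the 33 genes in every comparison and setting, 1.5-fold included. With intervals 1.5 times as wide, separate intervals were left for 2 genes higher and 1 lower (KO against WT, Lin-), 0 higher and 1 lower (KO against WT, Gr1+Mac1+), 0 higher and 0 lower (Het against WT, Lin-), 0 higher and 4 lower (Het against WT, Gr1+Mac1+), 0 higher and 2 lower (KO against Het, Lin-), and 2 higher and 1 lower (KO against Het, Gr1+Mac1+). Rescaling raised the lower genes of KO against WT in Gr1+Mac1+ cells to 7, with scaling factors of 0.881 (KO) and 0.877 (WT). As deposited, the intervals of Aurka, Ccna2 and Cenpe overlapped only slightly in that comparison. For Ccna2 the KO interval ended at 70.24 FPKM and the WT interval began at 70.22 FPKM. Of the values for single genes, 261 kept direction and call, and 21 kept direction but lost the call. With 1 pool per genotype, the genotype comparisons have no measure of the spread between mice.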

Other observations

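Regulators outside the division machinery were split between the fractions. Of 24 G2/M regulators, 17 were higher and 4 lower in Lin- cells, with a median log2 difference of 0.41 as deposited, and 6 were higher and 7 lower after rescaling. The shares of all genes called higher and lower were 51.6% and 30.4% as deposited, and 38.3% and 39.8% after rescaling. E2f2 went against the majority, with 20.1 (KO), 19.5 (Het) and 14.3 (WT) FPKM in Lin- cells, against 55.7 (KO), 57.3 (Het) and 60.6 (WT) FPKM in Gr1+Mac1+ cells, and so did the phosphatase gene Cdc25b, which activates CDK1, at -1.30 (SE 0.22, adjusted p = 0.00435 by limma). Of 13 G1 cyclins, CDKs and inhibitors tested, 5 were higher and 6 lower, with a median of -0.30. Cdkn2d, an inhibitor of CDK4 and CDK6, had 7.79 (KO), 13.0 (Het) and 8.41 (WT) FPKM in Lin- cells, against 78.7 (KO), 80.3 (Het) and 83.2 (WT) FPKM in Gr1+Mac1+ cells. Cdk6 went the other way, with 50.6 (KO), 45.2 (Het) and 49.8 (WT) FPKM in Lin- cells, against 12.7 (KO), 15.0 (Het) and 13.0 (WT) FPKM in Gr1+Mac1+ cells. These directions held after rescaling, at -2.02 for E2f2, -1.66 for Cdc25b, -3.33 for Cdkn2d and 1.40 for Cdk6.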
